A study of Mus musculus with 6 samples.

Results

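Read pairs with both ends in the same 10 kb bin, or in a bin and its next neighbour, were examined across the Sox9/Kcnj locus in 6 mouse capture Hi-C maps. These pairs were defined by position, with earlier results of these data known. They comprised the 587 same-bin pairs and the 586 adjacent-bin pairs of mm9 chr11:109010001-114880000, or 1173 of the 172578 pairs of bins in each map. Capture Hi-C ligates crosslinked DNA ends that lay close together in the nucleus, enriches a chosen locus with probes and counts each pair of places that was joined. Contacts this short are present wherever a sequence is present, so their count follows the number of copies of the bin, the local density of cutting sites and probes, and the mapping of the reads. Dividing a mutant by its control removes what a bin has in common in both libraries but leaves a scatter between bins that exceeds counting error. The counts were used here as a profile of gained and lost sequence and as a map of its edges.

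The locus holds, in order along the chromosome, Map2k6, a kinase gene, Kcnj16 and Kcnj2, which encode inward-rectifier potassium channels, and Sox9, a transcription factor gene needed for cartilage formation and testis development. The Kcnj genes and Sox9 lie in neighbouring topologically associating domains (TADs), stretches of chromatin whose parts contact each other more than they contact what lies beyond a boundary. A duplication can stay within such a domain or take in the boundary, and in a tandem repeat the copies lie next to each other. Every bin inside then occurs more often than in a normal chromosome, while the passage from flanking sequence into the segment does not. These statements are background. Bins were not assigned to genes, because the gene positions at hand are of another build than the maps.

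Limb buds of mouse embryos at stage E12.5 were used throughout, with 1 library for each genotype. The genotypes were WT (unmodified control), deltaBor (a deletion of the TAD boundary), and the 3 duplications named Dup-S, Dup-C and Dup-L. Dup-LdeltaBor combines the Dup-L duplication with the deletion of the boundary. The span of each duplication was read from the maps. Strain, zygosity and the number of embryos in a library were not given in the sources used here, so ratios are given without assigning a copy number. Each library filled its own sequencing lane. With 1 library per genotype no difference has a replicate check, no test across samples was possible, and each comparison is of 2 libraries, not of 2 genotypes. Contact maps hold no expression values, so the tissue label could not be compared with marker genes.

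The maps held 4144258 (Dup-C) to 8965219 (Dup-LdeltaBor) contacts. Same-bin pairs took 14.5% of all contacts in Dup-LdeltaBor, 16.7% in Dup-L, 18.4% in WT, 20.4% in Dup-S, 21.4% in Dup-C and 23.6% in deltaBor. Adjacent pairs took 10.6% to 11.5%. The median bin held 1295 (Dup-C) to 2406 (deltaBor) same-bin contacts, and the median adjacent pair 673.5 (Dup-C) to 1337.5 (Dup-L). The same-bin share thus differed between libraries by more than the adjacent share did. For this reason each kind of pair was scaled on itself: a scaled ratio is the mutant count over the control count of a pair, divided by the median of that ratio over the pairs outside 110.77-112.52 Mb, the stretch that spans every duplication (stretches of several bins are given in Mb of the same chromosome and build). Bins with under 50 contacts in the control were left out. Against WT this removed 2 bins, 110600001-110610000 and 114870001-114880000, each with at most 5 same-bin contacts in every library. Against Dup-L it also removed 114830001-114840000, which held 25 contacts in Dup-L and up to 576 in the others. Intervals are exact (Clopper-Pearson) 95% intervals conditional on both counts. They cover counting error only, leaving out the error of the scale and any variation between embryos, and reads without molecular identifiers are not independent molecules.

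The scatter of bins that carry no duplication gave the yardstick for single bins. Over the 410 such bins with enough counts, the SD of the log2 same-bin ratio to WT was 0.12 for deltaBor, 0.15 for Dup-S, 0.16 for Dup-LdeltaBor, 0.28 for Dup-L and 0.36 for Dup-C. Counting error alone gave 0.049 to 0.066. Without the last 10 bins of the map, an alternative chosen after seeing the data, the SD was 0.12 in Dup-L and 0.24 in Dup-C. A bin was called gained at a ratio at least 25% above 1 and lost at a ratio of 0.8 or less. Among the bins outside the duplications, 0 (Dup-L) to 12 (Dup-C) were called gained and 10 (deltaBor) to 38 (Dup-C) lost. Over all bins tested, inside and outside, the share called lost was 2.39% in deltaBor, 2.56% in Dup-S, 3.25% in both Dup-L and Dup-LdeltaBor, and 6.67% in Dup-C. Single bins past these folds are therefore no sign of a change by themselves, above all in Dup-C.

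**Figure D1:**
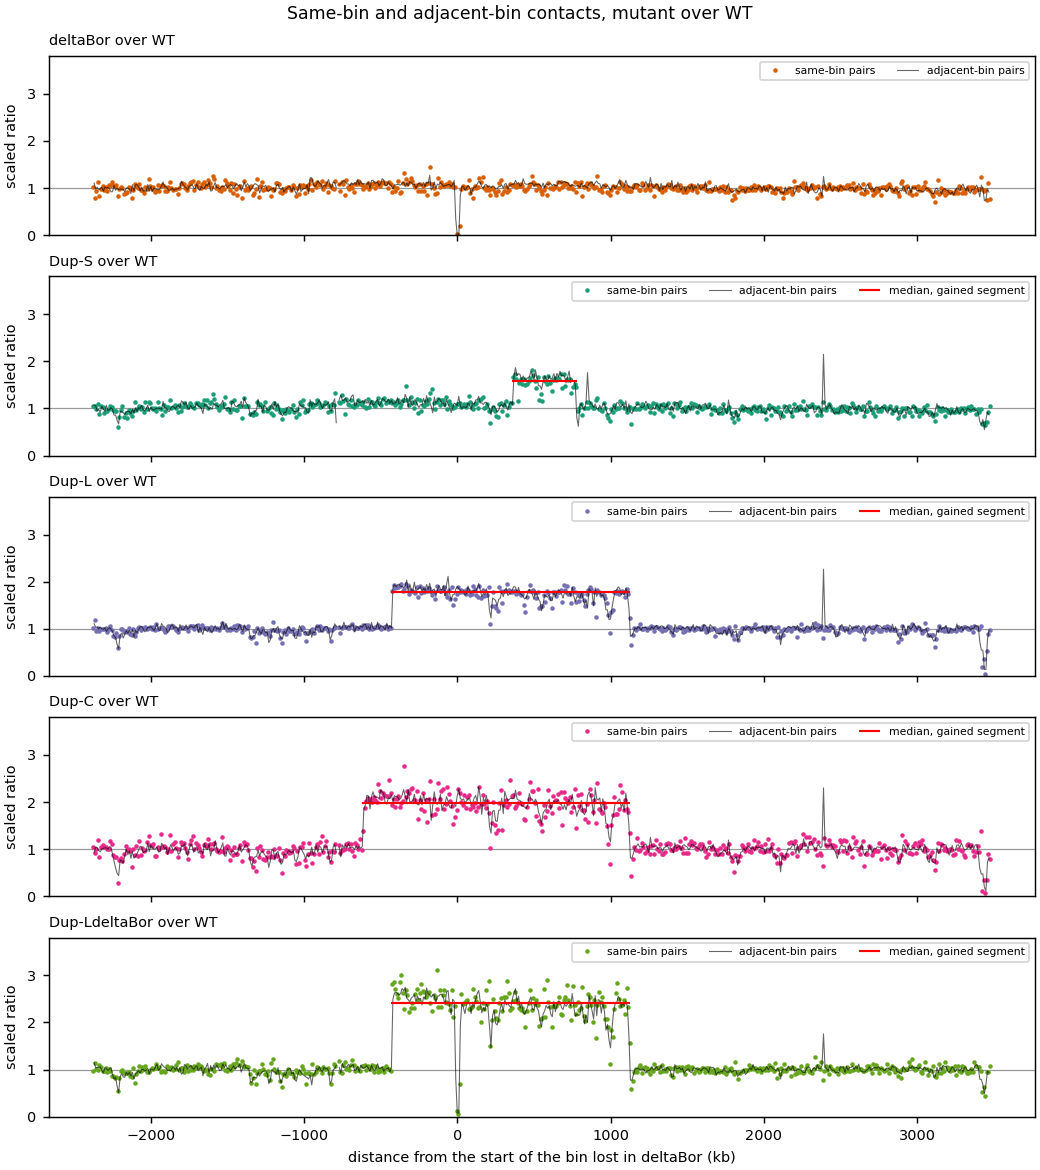
Scaled ratio to WT (vertical axis, no unit) of every same-bin pair (points) and adjacent-bin pair (grey line) against distance in kb from the start of the bin lost in deltaBor, 1 panel per mutant library. Red lines mark the median same-bin ratio of each gained segment, 1.59 for Dup-S, 1.78 for Dup-L, 2.40 for Dup-LdeltaBor and 1.98 for Dup-C, and bins outside lie around 1.

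The first comparison asked how much sequence the boundary deletion removed. In deltaBor the same-bin contacts of 3 neighbouring bins were low: the bin at 111390001-111400000 was empty, its centromeric neighbour kept 1.96% of the WT level and its telomeric neighbour 20.7%. Bins on either side of these 3 were close to WT. The empty bin, 111390001-111400000, held 1642 same-bin contacts in WT, 0 in deltaBor and 82 in Dup-LdeltaBor, against 1410 in Dup-S, 1972 in Dup-C and 2789 in Dup-L. Both libraries that carry the deletion were far below the other 4. A count of 0 in deltaBor allows up to 0.160% of the scaled WT level, taking 3 counts as the limit.

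The centromeric neighbour, 111380001-111390000, held 2336 contacts in WT, 52 in deltaBor and 203 in Dup-LdeltaBor, against 1984 for Dup-S, 2259 for Dup-C and 3679 for Dup-L. Its 1.96% of WT in deltaBor had an interval of 1.46% to 2.57%. The telomeric neighbour, 111400001-111410000, held 1809 contacts in WT, 427 in deltaBor and 936 in Dup-LdeltaBor, against 1574 for Dup-S, 2098 for Dup-C and 2919 for Dup-L. Its 20.7% in deltaBor had an interval of 18.6% to 23.1%. Next to these, the bin at 111370001-111380000 was at 103% (95.1% to 111%) and the bin at 111410001-111420000 at 97.4% (90.1% to 105%). The loss thus began and ended within 3 bins and was steeper on the centromeric side.

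Adjacent pairs gave a second reading of the same edges. The 2 pairs that contain the empty bin had 851 and 1356 contacts in WT and 0 in deltaBor, which allows up to 0.399% and 0.250% of WT. The pair of 111370001-111380000 with 111380001-111390000 kept 34.3% (29.8% to 39.4%) in deltaBor, although same-bin contacts of its second bin were at 1.96%. The pair of 111400001-111410000 with 111410001-111420000 kept 84.2% (76.4% to 92.8%), although same-bin contacts of its first bin were at 20.7%. On both sides the remaining sequence of a cut bin was thus more evident in contacts with the intact neighbour than within the bin.

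The bins that flank the loss were also compared across it. Bins 111370001-111380000 and 111400001-111410000 are 3 bins apart in the reference and are no member pair. They shared 152 contacts in WT and 507 in deltaBor, 118 in Dup-S and 146 in Dup-C, and 331 in Dup-L and 1101 in Dup-LdeltaBor. Scaled on outside pairs that are also 3 bins apart, deltaBor over WT was 3.98 (3.31 to 4.80), and Dup-LdeltaBor over Dup-L was 3.55 (3.14 to 4.03). In deltaBor the 507 contacts compare with 265 between bins 111370001-111380000 and 111380001-111390000, which are neighbours in the reference.

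Dup-LdeltaBor carries the loss on a background of gained sequence, so it was read against Dup-L and relative to the median ratio of the segment. The empty bin of deltaBor was at 2.56% (2.03% to 3.18%), from 82 contacts against 2789. Its centromeric neighbour was at 4.80% (4.14% to 5.53%) and its telomeric neighbour at 27.9% (25.9% to 30.01%). Bins 111370001-111380000 and 111410001-111420000 were both at 104%. The 3 bins were those low in deltaBor and their order was the same, but in each the share kept was higher in Dup-LdeltaBor. The 2 adjacent pairs containing the empty bin were at 3.01% and 3.18% of the segment's median, where deltaBor had 0 contacts, and the outer pairs were at 32.7% and 78.5%. Intervals of the 3 same-bin shares did not overlap those of deltaBor, but the comparison is between single libraries and has no test.

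**Figure D2:**
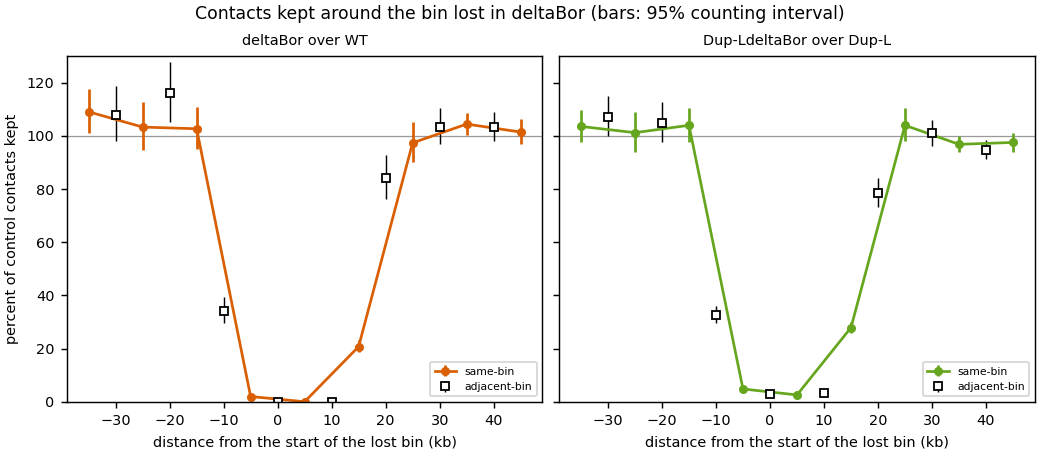
Percent of control contacts kept (vertical axis) against distance in kb from the start of the bin lost in deltaBor, for deltaBor over WT (left) and Dup-LdeltaBor over Dup-L relative to the segment median (right). Filled circles joined by lines are same-bin pairs, open squares adjacent-bin pairs and bars 95% counting intervals; the lowest same-bin value is 0% on the left and 2.56% on the right.

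Over the rest of the locus deltaBor lay near WT in both kinds of contact. Same-bin medians were 1.06 over the 42 bins of 110.96-111.38 Mb and 1.00 over the 34 bins of 111.41-111.75 Mb, on the 2 sides of the deletion. Over all 585 bins tested, 4 bins (0.684%) were called gained and 14 (2.39%) lost, the 3 boundary bins among them. Of 584 adjacent pairs, 1 (0.171%) was called gained and 5 (0.856%) lost.

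In the shortest duplication, Dup-S, the gained stretch was 111.75-112.17 Mb (420 kb), on the telomeric side of the boundary. The method used returns only 1 stretch per comparison, so it could not have reported another. The segment was located from contacts 2 or more bins apart, which contain no member pair, and same-bin and adjacent-bin ratios each gave the same start and end. The median same-bin ratio over its 42 bins was 1.59 (quartiles 1.48 and 1.64), and 39 of the 42 bins were called gained, beside 7.86% of all bins tested. The 41 adjacent pairs inside had a median of 1.67, and all 41 were called gained, beside 8.56% of all adjacent pairs. Contacts 2 or more bins apart gave a median of 1.60 per bin. The ratio of summed same-bin counts was 1.55 (1.53 to 1.56).

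Bins of the Dup-S segment did not share 1 value. The lowest was 111940001-111950000 at 1.15, from 1538 contacts in Dup-S and 1723 in WT, and the highest was 111870001-111880000 at 1.82. Outside the segment the same-bin medians of Dup-S were 1.13 over 110.77-110.96 Mb, 1.12 over 110.96-111.38 Mb, 1.05 over 111.41-111.75 Mb and 1.00 over 112.17-112.52 Mb. The centromeric stretches were thus above the telomeric one, and no test was available for these differences.

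Dup-L took in the boundary and spanned 110.96-112.52 Mb (1560 kb). Its median same-bin ratio over 156 bins was 1.78 (quartiles 1.68 and 1.82), its adjacent-bin median 1.77 and its median from longer contacts 1.78. Of the 156 bins 152 were called gained, beside 26% of all bins tested, and of the 155 adjacent pairs 152, beside 26.2% of all. The ratio of summed counts was lower, 1.72 (1.71 to 1.72). Medians lay in a narrow range along the segment: 1.81 over 110.96-111.38 Mb, 1.78 over 111.41-111.75 Mb, 1.76 over the stretch duplicated in Dup-S and 1.73 over 112.17-112.52 Mb. The stretch 110.77-110.96 Mb, just beyond the centromeric edge, was at 1.03. Over the stretch that Dup-S also gains, Dup-S was at 1.59 and Dup-L at 1.76, both against the same WT library.

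Dup-C extended the gain on the centromeric side and spanned 110.77-112.52 Mb (1750 kb). The same-bin median over 175 bins was 1.98 (quartiles 1.83 and 2.14), the adjacent-bin median 2.01 and the median from longer contacts 2.05. Of 175 bins 172 were called gained, beside 31.5% of all tested, and of 174 adjacent pairs 173, beside 30%. Same-bin medians were 2.09 over 110.77-110.96 Mb, 2.05 over 110.96-111.38 Mb, 1.95 over 111.41-111.75 Mb, 1.98 over the Dup-S stretch and 1.84 over 112.17-112.52 Mb. Single bins scattered more in Dup-C than in Dup-S and Dup-L, with a range of 0.691 to 2.77 inside the segment. Dup-C is the library with the fewest contacts. Outside the duplications its observed SD of the log2 ratio was 0.36, and counting error alone gave 0.066. The part of depth in this scatter was not tested.

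A direct ratio of Dup-C to Dup-L separates the sequence that only the longer duplication holds. Over 110.77-110.96 Mb (190 kb) the same-bin median was 2.01 (quartiles 1.95 and 2.12), the adjacent-bin median 2.07 and the median from longer contacts 2.17. All 19 bins and all 18 adjacent pairs were called gained, beside 7.36% and 4.12% of all tested. Over the sequence that both duplications hold, the medians of the same ratio were 1.08 to 1.13, close to 1 but above it in each of the 4 stretches. The SD of the log2 ratio over bins outside the duplications was 0.19 in this comparison.

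Dup-LdeltaBor had the same span as Dup-L and a higher gain. Its median same-bin ratio to WT was 2.40 (quartiles 2.26 and 2.59), its adjacent-bin median 2.39 and its median from longer contacts 2.48, against 1.78, 1.77 and 1.78 in Dup-L. Of 156 bins 152 were called gained, beside 26.2% of all, and 3 lost, beside 3.25% of all. The 3 lost bins were those of the boundary. Of 155 adjacent pairs 152 were called gained, beside 26.2% of all. Divided directly by Dup-L, the same-bin median was 1.37 (quartiles 1.32 and 1.42), and 145 of 156 bins were called gained, beside 25.7% of all tested. The adjacent-bin median was 1.350 with 144 of 155 pairs called, beside 25% of all. Longer contacts gave 1.40. Just beyond the centromeric edge, over 110.77-110.96 Mb, the ratio of Dup-LdeltaBor to Dup-L was 0.989.

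The excess of Dup-LdeltaBor over Dup-L was present along the segment except at the lost boundary bins. The medians were 1.41 over 110.96-111.38 Mb, 1.38 over 111.41-111.75 Mb, 1.36 over the Dup-S stretch and 1.34 over 112.17-112.52 Mb. Both kinds of short contact and the longer contacts gave it. Dividing by library totals in place of the bins outside gave 1.06 for same-bin and 1.17 for adjacent-bin pairs, so its size depends on the scaling. Library totals include the gained contacts themselves, and the same-bin share of the total differed between these libraries, at 14.5% and 16.7%. In the authors' KR-balanced maps, where balancing gives bins equal sums, the same-bin medians of all 4 gained segments were below 1, at 0.792 to 0.858 of WT, so the gains are seen in the raw counts and not in the balanced values. With 1 library of each, a difference between the genotypes and one between these libraries cannot be told apart.

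The bin with the most same-bin contacts, named after its values were seen, was not the same in all libraries. In WT and deltaBor this was 112600001-112610000, outside every duplication, with 6588 and 7981 contacts. In the other 4 libraries it was 112030001-112040000, which lies in every gained segment: it held 6581 contacts in WT, 7621 in deltaBor and 11673 in Dup-LdeltaBor, against 8236 for Dup-S, 7064 for Dup-C and 10135 for Dup-L. The scaled ratios to WT were 1.02 in deltaBor, 1.61 in Dup-S, 2.04 in Dup-C, 1.70 in Dup-L and 2.35 in Dup-LdeltaBor. Their order was that of the segment medians, with Dup-LdeltaBor highest and Dup-S lowest of the 4 libraries. The bin was picked by its counts and is part of those medians, so the shared order is no separate result. Raw counts alone would place Dup-C below deltaBor in this bin, and the Dup-C map is the shallowest.

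Some bins inside the gained segments stood well below their neighbours. Bin 112380001-112390000, the lowest of both Dup-L and Dup-C, held 1817 contacts in WT and 1773 in deltaBor, 1036 in Dup-S and 661 in Dup-C, and 1496 in Dup-L and 1521 in Dup-LdeltaBor. Its scaled ratios were 0.857 in deltaBor and 0.734 in Dup-S, which carry no gain there, 0.911 in Dup-L, 1.11 in Dup-LdeltaBor and 0.691 in Dup-C. Bin 111600001-111610000, chosen after its values were seen, gave 0.853 and 0.694 in deltaBor and Dup-S, 1.11 in Dup-L, 1.49 in Dup-LdeltaBor and 1.03 in Dup-C. Both bins were thus also below 1 in the libraries without a gain there. All 5 ratios share the same WT count as their denominator.

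Edges were sharp at bin resolution on the centromeric side. In Dup-L the ratio stepped from 1.01 (0.943 to 1.09) in the last bin outside, 110950001-110960000, to 1.79 (1.63 to 1.97) in the first bin inside and 1.93 in the next. In the same bins Dup-LdeltaBor stepped from 0.972 (0.901 to 1.05) to 2.82 (2.57 to 3.09) and 2.85. The first bin inside held 689 contacts in WT, 1116 in Dup-L and 1465 in Dup-LdeltaBor. In Dup-S the step at 111750001 was from 1.13 (1.07 to 1.18) to 1.67 (1.61 to 1.74). No bin of intermediate value stood between outside and inside in these 3 libraries.

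In Dup-C the ratio rose over several bins at the centromeric edge. The last bin outside, 110760001-110770000, was at 0.988 (0.904 to 1.08), the first inside at 1.38 (1.29 to 1.48), the second at 1.87 and the third at 2.02. The first bin lay between the level outside and the segment's median of 1.98, and its counting interval excluded both. Single bins of this segment scattered beyond counting error, from 0.691 to 2.77. The value of 1 bin therefore cannot show whether the edge itself is graded. Against Dup-L the same bin was at 1.27 (1.19 to 1.36) and the second at 1.77. A bin outside, 110750001-110760000, was at 1.22 (1.16 to 1.28), short of the fold for a call.

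The telomeric edge at 112.52 Mb, shared by Dup-C, Dup-L and Dup-LdeltaBor, was graded in all 3 libraries. Same-bin ratios alone placed it 1 bin earlier, at 112.51 Mb, in Dup-L and Dup-C, and at 112.52 Mb in Dup-LdeltaBor. The last bin inside, which starts at 112510001, was at 1.24 in Dup-L, 1.56 in Dup-LdeltaBor and 1.34 in Dup-C, each well below its segment's median. The next bin inside, 112500001-112510000, was at 1.73, 2.32 and 1.78 in that order. The first bin outside, 112520001-112530000, held 696 contacts in WT, 752 in deltaBor and 310 in Dup-LdeltaBor, against 365 for Dup-S, 161 for Dup-C and 414 for Dup-L. It was at 0.658 in Dup-L, 0.591 in Dup-LdeltaBor and 0.439 in Dup-C, all below 1, but also at 0.675 in Dup-S, whose segment ends 350 kb away, and at 0.949 in deltaBor. The low value is therefore not particular to libraries with an edge there. The second bin outside was at 0.875, 0.759 and 0.800 in the same 3 libraries and at 0.985 in Dup-S.

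At the telomeric edge of Dup-S the last bin inside, 112160001-112170000, was at 1.44 (1.37 to 1.52) and the first bin outside, 112170001-112180000, at 0.941 (0.875 to 1.01). The following bins were at 1.01 and 1.09. Same-bin contacts thus returned to the level outside within 1 bin.

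**Figure D3:**
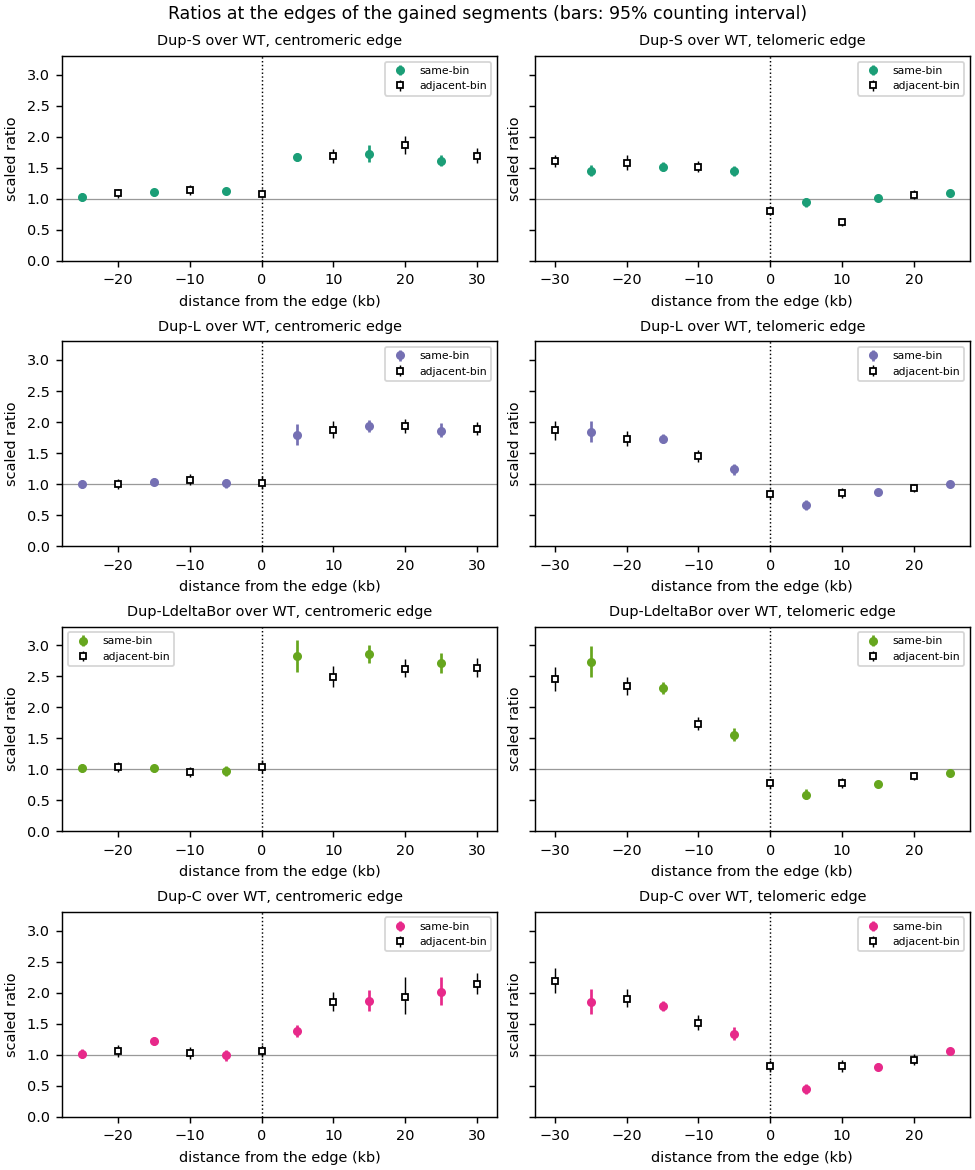
Scaled ratio to WT (vertical axis, no unit) of the 3 bins inside and the 3 outside each edge (filled circles, at the middle of the bin) and of the adjacent pairs between them (open squares, at the shared border) against distance in kb from the edge, 1 panel per library and edge; bars are 95% counting intervals. Centromeric edges of Dup-S, Dup-L and Dup-LdeltaBor step within 1 bin, and the shared telomeric edge passes through values of 1.24, 1.34 and 1.56 in its last inner bin.

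Adjacent pairs that cross an edge join a bin inside with a bin outside. On the centromeric side these pairs stayed near 1 in every duplication. The crossing pair was at 1.02 (0.917 to 1.13) for Dup-L, 1.04 (0.938 to 1.15) for Dup-LdeltaBor, 1.06 (0.961 to 1.16) for Dup-C and 1.08 (1.01 to 1.15) for Dup-S. The next pair inward, with both bins in the segment, was at 1.88, 2.49, 1.85 and 1.68 in the same order. The gain thus appeared in full 1 pair further in and was not seen in the pair that crosses. In Dup-C over Dup-L the pair that crosses the Dup-L edge at 110960001 was at 2.13 (1.92 to 2.37), since in Dup-C both of its bins lie inside the segment.

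On the telomeric side the crossing pairs were below 1. At 112.52 Mb they were at 0.839 (0.767 to 0.919) in Dup-L, 0.773 (0.704 to 0.849) in Dup-LdeltaBor and 0.812 (0.722 to 0.911) in Dup-C, and the next pair outward was at 0.858, 0.777 and 0.815. The outer bin of the crossing pair also had low same-bin ratios in these libraries. At 112170000 in Dup-S the crossing pair was at 0.808 (0.741 to 0.880), and the pair 1 step outward, of 112170001-112180000 with 112180001-112190000, at 0.622 (0.568 to 0.681). That pair held 1689 contacts in WT and 1564 in deltaBor, 676 in Dup-S and 1378 in Dup-C, and 2610 in Dup-L and 3160 in Dup-LdeltaBor.

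The low pair past the Dup-S edge lies wholly outside the segment, and neither of its bins was low in same-bin contacts, at 0.941 and 1.01. Its count over the mean of its 2 same-bin counts, divided by the library's median of that measure, was 1.05 in WT, 1.04 in deltaBor, 1.07 in Dup-L, 0.979 in Dup-LdeltaBor and 0.988 in Dup-C, but 0.670 in Dup-S. The value was thus lowest in Dup-S, the 1 library with an edge there.

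The ratio of an adjacent-bin count to the mean of its 2 same-bin counts is a measure in which copy number cancels where both bins have the same number of copies, so pairs that cross an edge are left out of its description. Its median over pairs outside the duplications was 0.468 in deltaBor, 0.499 in Dup-S, 0.503 in Dup-C, 0.607 in WT, 0.624 in Dup-L and 0.699 in Dup-LdeltaBor. The quartiles spanned 0.396 to 0.562 in deltaBor and 0.606 to 0.799 in Dup-LdeltaBor, so these 2 libraries were apart over most pairs. The order does not follow the presence of a duplication or of the boundary deletion: deltaBor was lowest and Dup-LdeltaBor, with the same deletion, highest. The order was the reverse of that of the same-bin share of all contacts, 23.6% in deltaBor and 14.5% in Dup-LdeltaBor at the ends, except that Dup-C and Dup-S changed places. Same-bin counts are the denominator of this measure, and the adjacent share of all contacts differed little between libraries (10.6% to 11.5%). The opposed order thus follows largely from how the measure is built and is no separate result.

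**Figure D4:**
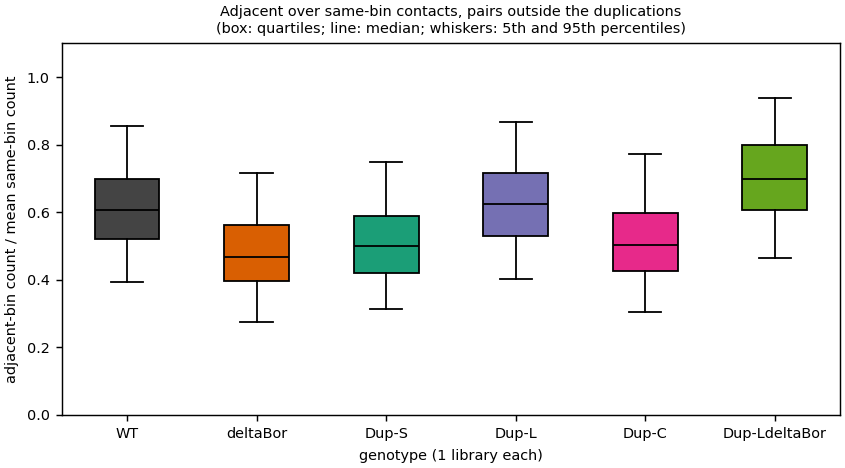
Adjacent-bin count over the mean of its 2 same-bin counts (vertical axis, no unit) for pairs outside the duplications, by library. Boxes show quartiles, lines medians and whiskers the 5th and 95th percentiles; medians run from 0.468 in deltaBor to 0.699 in Dup-LdeltaBor.

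Inside the segments this measure was higher than outside in every library, WT included. In WT its median was 0.686 over the Dup-L segment against 0.607 outside, in Dup-L 0.703 against 0.624, in Dup-C over its own segment 0.582 against 0.503, and in Dup-LdeltaBor 0.782 against 0.699. The offset was thus already there without a duplication. At the boundary, the pair of 111380001-111390000 with 111390001-111400000 was at 0.704 of the library's median in WT, 0.688 in Dup-S, 0.736 in Dup-L and 0.770 in Dup-C. The other pair that contains the bin lost in deltaBor, of 111390001-111400000 with 111400001-111410000, was above the median instead, at 1.29 in WT, 1.48 in Dup-S, 1.30 in Dup-L and 1.36 in Dup-C. The 2 neighbouring pairs thus lay on opposite sides of the median in all 4 libraries that keep the boundary.

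One adjacent pair outside every segment was high in all 4 duplication libraries. Bins 113770001-113780000 and 113780001-113790000 shared 173 contacts in WT, 191 in deltaBor and 265 in Dup-LdeltaBor, against 239 for Dup-S, 179 for Dup-C and 361 for Dup-L. The scaled ratios to WT were 1.249 (1.01 to 1.54) in deltaBor, 2.15 (1.76 to 2.63) in Dup-S, 2.30 (1.85 to 2.85) in Dup-C, 2.26 (1.88 to 2.73) in Dup-L and 1.76 (1.45 to 2.14) in Dup-LdeltaBor. Among pairs with at least 50 contacts in WT, it was the highest adjacent pair outside 110.77-112.52 Mb in each of the 5 comparisons with WT. Same-bin ratios of its first bin, which held 361 contacts in WT, were 1.01 in deltaBor, 1.14 in Dup-S and 0.652 to 0.797 in the other 3. Those of its second bin were 0.970 to 1.23. The bins themselves thus showed no gain. In WT this pair was the lowest of all outside pairs in adjacent over same-bin contacts, at 0.145, and the ratios share that low WT count.

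Of the 50 adjacent pairs called gained in Dup-S, 41 lay in its segment, 4 outside 110.77-112.52 Mb and 5 elsewhere within that stretch. Of these 5, 4 were at 1.30 or less, and the highest is described here, chosen after its values were seen. Bins 112230001-112240000 and 112240001-112250000 shared 778 contacts in WT and 689 in deltaBor, 881 in Dup-S and 747 in Dup-C, and 1033 in Dup-L and 1356 in Dup-LdeltaBor. The ratio was 1.76 in Dup-S and 1.00 in deltaBor, while Dup-S same-bin ratios of the bins were 1.15 and 1.01. In Dup-L the same pair was at 1.44, below its segment's median of 1.77, and in Dup-C at 2.13, above its median of 2.01.

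Some bins outside the segments were low in several mutants, among them bins near both ends of the map. Of the 410 bins, 48 were called lost in at least 1 mutant, 9 in 4 of the 5 mutants and 0 in all 5, and 16 were called gained in at least 1. Over all bins tested in a mutant, 2.39% (deltaBor) to 6.67% (Dup-C) were called lost. The share called gained, which includes the gained segments, was 0.684% (deltaBor) to 31.5% (Dup-C). All 5 ratios of a bin share its WT count, so a bin low in several mutants is not a repeated observation. The bin at 114830001-114840000 held 526 same-bin contacts in WT, 576 in deltaBor and 172 in Dup-LdeltaBor, against 262 in Dup-S, 20 in Dup-C and 25 in Dup-L. The ratios were 0.962 in deltaBor, 0.641 in Dup-S, 0.0722 in Dup-C, 0.0526 in Dup-L and 0.434 in Dup-LdeltaBor. WT and deltaBor were close there and the 4 duplication libraries lower, with Dup-L and Dup-C near the level of a lost bin. The bin at 114810001-114820000 held 588 contacts in WT, 659 in deltaBor and 236 in Dup-LdeltaBor, against 311 for Dup-S, 32 for Dup-C and 105 for Dup-L. Its ratios were 0.985 in deltaBor, 0.680 in Dup-S, 0.103 in Dup-C, 0.198 in Dup-L and 0.532 in Dup-LdeltaBor.

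Neighbours of these bins differed. Bin 114800001-114810000, next to them on the centromeric side, was not low, at 1.24 in deltaBor, 0.993 in Dup-S, 1.38 in Dup-C, 1.05 in Dup-L and 0.965 in Dup-LdeltaBor. Bin 114820001-114830000 had ratios of 0.943, 0.700, 0.350, 0.363 and 0.632 and bin 114840001-114850000 had 0.758, 0.723, 0.346, 0.534 and 0.952, for deltaBor, Dup-S, Dup-C, Dup-L and Dup-LdeltaBor. At the other end, bin 109170001-109180000 held 1227 contacts in WT, 1175 in deltaBor and 507 in Dup-LdeltaBor, against 576 for Dup-S, 185 for Dup-C and 664 for Dup-L. Its ratios were 0.841 in deltaBor, 0.604 in Dup-S, 0.286 in Dup-C, 0.599 in Dup-L and 0.548 in Dup-LdeltaBor. In this bin deltaBor was closest to WT and Dup-C lowest. All of these bins lie outside the stretch that spans the duplications. In 114810001-114820000 and 114830001-114840000 the ratios of Dup-L and Dup-C were at or below the 20.7% kept in the telomeric boundary bin of deltaBor.

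**Figure D5:**
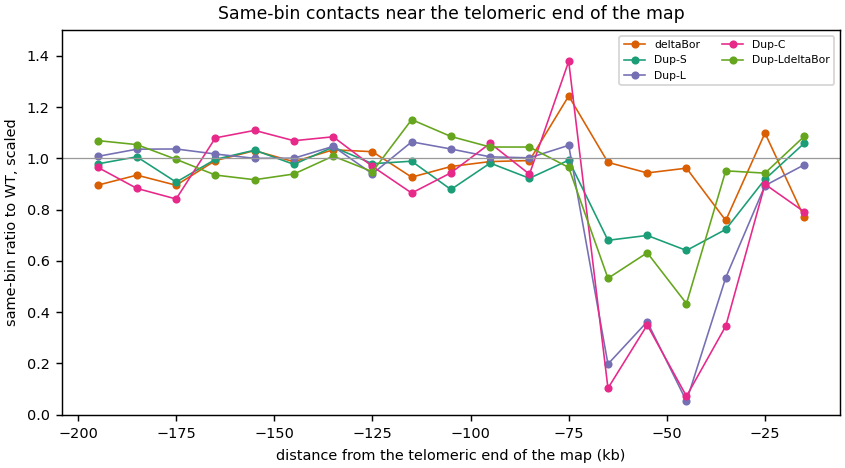
Scaled same-bin ratio to WT (vertical axis, no unit) over the last bins of the map against distance in kb from its telomeric end, 1 line per mutant library. In the bin at 114830001-114840000 Dup-L is at 0.0526 and Dup-C at 0.0722, while deltaBor is at 0.962.

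The deposited comparison maps were read over the same pairs. In the authors' deposited table of log2 ratios of WT over deltaBor, the empty bin stood at 16.9, its centromeric neighbour at 5.30 and its telomeric neighbour at 1.89. In the authors' deposited table of log2 ratios of Dup-LdeltaBor over Dup-L, the 3 bins stood at -5.16, -4.25 and -1.71. These 3 bins stand out in both deposited tables, and the sign is turned because WT is the numerator of the first. Apart from the empty bin, both tables follow the log2 ratios of the raw counts used here up to a nearly constant offset. The match is therefore no separate result. A value of 16.9 is no measured fold, since the count in deltaBor is 0.

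In the authors' deposited table of differences between Dup-S and WT, 100% of the same-bin pairs in the segment were above 0, but so were 86.2% of those outside. The authors' deposited table for Dup-C had 99.4% in the segment and 85.9% outside, and the authors' deposited table for deltaBor 99.0% outside. In the authors' deposited table for Dup-L the shares were 99.4% in the segment and 5.10% outside, and in the authors' deposited table of Dup-LdeltaBor minus Dup-L 98.1% and 5.58%. Adjacent pairs outside were above 0 in 11.5% for Dup-S, 53.7% for Dup-C, 19.5% for Dup-L, 48.0% for deltaBor and 49.3% for Dup-LdeltaBor minus Dup-L in the authors' deposited tables. A difference of 0 in those maps therefore does not mark unchanged sequence on the main diagonal.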

How the data were processed

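Capture Hi-C maps of 6 mouse limb bud libraries, 1 per genotype, were analysed. The submitters' processing notes name Bowtie2 2.2.6 and the build mm9. The sources used here do not give duplicate removal or pair filters. Per the file names, reads had a mapping quality of 30 and bins were 10 kb. The authors deposited raw contact counts per pair of bins, the same maps as a KR-balanced signal, log2 ratio maps and difference maps on a score scale of their own, the last made from scaled raw counts. Positions in 2 maps (Dup-C and Dup-S) are offsets and were counted from 109010001.

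Counts were compared as scaled ratios, with exact 95% intervals from SciPy 1.17.1. Segments were found with a circular binary segmentation statistic (pseudocount 0.5) on contacts 2 or more bins apart. Edges were also taken from same-bin and adjacent-bin ratios. The statistic was tried on simulated same-bin and adjacent-bin counts with a known gain and counting error only. The simulation held no longer contacts, no lost bins and no scatter beyond counting error. It therefore cannot show how exact the edges are in these maps. Named bins were the 3 inside and 3 outside each edge, those around the lost bin, and the highest and lowest inside and outside each segment; no bin had 0 same-bin contacts in WT. Other bins and pairs named after their values were seen are said to be so. Members and lists, and the stretch used for scaling, were chosen with earlier results of these data known. Alternatives were another scaling, KR values, other count minimums, summaries and edge methods. No p-values were computed, because each genotype has 1 library. No sequence is printed, since no mm9 genome was used here.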

Additional observations from a re-analysis of the deposited data

How the results depend on the processing

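Every gain kept its direction under all raw-count alternatives and none did with KR values, which give bins equal sums by construction. Medians are given for Dup-S, Dup-L, Dup-C, Dup-LdeltaBor, Dup-LdeltaBor over Dup-L and Dup-C over Dup-L, in that order. With KR values, same-bin medians were 0.840, 0.858, 0.841, 0.792, 0.914 and 0.776, and adjacent-bin medians 0.904, 0.872, 0.878, 0.788, 0.895 and 0.766. Scaled to library totals they were 1.65, 1.37, 1.78, 1.43, 1.06 and 2.35 for same-bin pairs and 1.43, 1.39, 1.54, 1.63, 1.17 and 1.99 for adjacent-bin pairs. Summed counts gave adjacent-bin ratios of 1.64, 1.73, 1.96, 2.30, 1.33 and 2.02, and same-bin ratios of 1.55 (Dup-S), 1.72 (Dup-L), 2.32 (Dup-LdeltaBor) and 1.34 (over Dup-L). Scaling to 20 flanking bins a side, chosen after seeing the data, gave 1.57, 1.73, 1.99, 2.36 and 1.38, without the last comparison, whose telomeric flank is duplicated in both libraries. Scaling on summed counts outside gave 1.81 (Dup-L), 1.96 (Dup-C), 2.43 (Dup-LdeltaBor) and 1.97 (Dup-C over Dup-L). A minimum of 500 counts gave 1.97 in Dup-C (same-bin) and 2.37 in Dup-LdeltaBor (adjacent-bin). The 3 boundary bins pooled kept a ratio of 0.0727 in deltaBor (0.0921 by library totals, 0.400 by KR) and 0.155 in Dup-LdeltaBor over Dup-L (0.120 by library totals, 2.78 by KR, which reverses it). Edges from adjacent pairs moved the end of Dup-L and of Dup-C from 112.51 Mb with same-bin ratios to 112.52 Mb, as did longer contacts, and the start of Dup-LdeltaBor over Dup-L to 111.41 Mb. They moved Dup-C over Dup-L to 110.77 Mb (start, as did longer contacts) and 110.97 Mb (end). A running median of 5 bins moved the Dup-L end to 112.37 Mb and the Dup-C start and end to 110.78 Mb and 111.66 Mb. It moved the Dup-LdeltaBor start and end to 111.41 Mb and 112.51 Mb, and the start of Dup-LdeltaBor over Dup-L to 111.41 Mb. The running median is followed outward from the middle of a segment and stops at the first low value. The starts at 111.41 Mb lie where the 3 boundary bins end, so they do not mark the edge of the duplication. The cause of the other moves was not tested. No paired analysis was possible because each genotype has 1 library. Leaving out a replicate was not possible for the same reason. Counts of a bin limit its ratio to the interval given beside it, and the scatter between bins outside the segments exceeded counting error in every comparison.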

Other observations

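Dup-L and Dup-LdeltaBor share their gained span, and the bins near the telomeric end of the map differed between them. In 114810001-114820000 the same-bin ratio of Dup-LdeltaBor to Dup-L was 2.67 (2.12 to 3.40), in 114840001-114850000 it was 1.77 (1.46 to 2.14) and in 114820001-114830000 1.73 (1.57 to 1.91). These were the 3 highest bins outside the segments among those with at least 50 contacts in Dup-L. Bin 114830001-114840000, below that minimum with 25 contacts in Dup-L and 172 in Dup-LdeltaBor, was at 8.18 (5.36 to 13.0). With the same minimum, in Dup-C over Dup-L the lowest bin outside was 109170001-109180000, at 0.474 (0.401 to 0.559), and the highest 113640001-113650000, at 1.32 (1.22 to 1.43). In deltaBor the lowest was 114500001-114510000, at 0.714 (0.651 to 0.783), which was also at 0.730 in Dup-S, 0.549 in Dup-C, 0.625 in Dup-L and 0.860 in Dup-LdeltaBor. These values have no test.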
